A study of Danio rerio with 9 samples.

Results

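Trunk neural crest cells of zebrafish at 24 h post-fertilisation (hpf) were compared with non-crest cells at 17 hpf, in 6 of the 9 bulk RNA-seq libraries of the series. The trunk crest group (n = 3 libraries) held GFP-positive cells sorted from Tg(-4.9sox10:eGFP) embryos, in which 4.9 kb of sox10 promoter drives the reporter, in tissue spanning somites 7 to 16. The non-crest group (n = 3) held mCherry-negative cells sorted from 16-somite embryos (17 hpf) that carried Tg(-4.9sox10:GAL4-UAS-cre) together with UAS:NfsB-mCherry and myl7:nucGFP, in tissue reaching from the midbrain-hindbrain boundary to somite 6. The third group, mCherry-positive cardiac crest (n = 3), came from that same line, age and tissue. It was used to ask which crest genes both crest groups hold above non-crest. The somite stage given for the 17 hpf groups is that of the sample labels, while another deposited name gives a later stage. Age, axial level, fish line, reporter and library series all differ between trunk crest and each of the other groups. Their parts in any difference of trunk crest from non-crest or cardiac crest cannot be told apart.

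Neural crest cells leave the dorsal neural tube, migrate, and form pigment cells, peripheral neurons, glia and, from cranial levels, skeleton and connective tissue. In the zebrafish trunk their pigment derivatives are the black melanophores, the yellow xanthophores and the reflective iridophores. Melanophores make melanin from tyrosine, xanthophores make pteridines from guanosine triphosphate, and iridophores stack crystals of purine. Genes of these pathways were listed by lineage, but bulk levels do not show which cells hold the transcripts.

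Genes were chosen by their presence in both deposited tables, which left 20847 of 31953 genes. Library totals over these genes ran from 25128422 to 29842884 reads in trunk crest, from 35392070 to 44569936 in non-crest and from 34041736 to 44651306 in cardiac crest. Levels are given as CPM, read counts scaled to a common depth after correcting the libraries by edgeR's TMM method, and SDs are over the 3 libraries of a group. The amplified libraries carried no molecular identifiers, so counting intervals and floors cover counting error only. Whether replicates are separate pools of embryos is not stated, so the p-values rest on library-to-library spread, possibly technical. Across genes, on the log2(CPM + 1) scale, Pearson correlations ran from 0.95 to 0.962 among trunk crest libraries and from 0.864 to 0.925 among non-crest libraries, lowest for non-crest replicate 3. The 11106 genes left out include 106 at 10 CPM or more in non-crest, among them the muscle gene myl10, agr1 and the globin gene hbbe3. Their trunk crest levels are not known, so that the comparison is incomplete. Before TMM correction myl10 stood at 12.5, 35.5 and 1552 CPM in the cardiac crest libraries. The high value was in cardiac crest replicate 3 alone, which also had the highest summed muscle level of its group (11512 CPM). The genes left out are therefore not only genes low in every crest library. Only 14 of 26 epidermal list genes were in both tables.

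The sorted groups carried the crest, skin and vessel markers that their labels imply. Transcripts of sox10 (chromosome 3, 2013057 to 2022138, GRCz10), the crest transcription factor whose promoter drives both reporters, stood at 825, 806 and 801 CPM in the 3 trunk crest libraries and at 24.0, 22.8 and 9.96 CPM in non-crest. The sort selected for this promoter's activity, so the difference checks the sort and is no finding. Transcripts of tfap2a, a transcription factor needed for crest formation, lay at 486, 489 and 409 CPM in trunk crest against 53.8, 53.7 and 8.92 CPM in non-crest, a log2 fold change of 3.55 ± 0.65 (SE; edgeR quasi-likelihood test, adjusted p = 0.00895). All trunk crest libraries lay above all non-crest libraries for both genes. Non-crest was not free of crest transcripts, and its replicate 3 held the least of both genes.

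The keratin gene krt5, a marker of epidermis, stood at 622, 959.6 and 1088 CPM in non-crest against 15.9, 0.342 and 1.33 CPM in trunk crest (-7.25 ± 1.39, adjusted p = 0.0107). For cdh5, the cadherin of endothelial junctions, 6 reads were counted in each trunk crest library, a mean of 0.253 ± 0.0239 CPM against 38.3 ± 4.62 CPM in non-crest (-7.24 ± 0.43, adjusted p = 0.000211). A share of 47.24% of the bases of cdh5 lies inside another gene, and counting used no strand, as stated for non-crest and assumed for trunk crest. In bulk samples fewer cells of a type and less RNA per cell cannot be told apart.

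The pigment markers separated trunk crest from both other groups. For dct (chromosome 9, 53788137 to 53813085), which encodes dopachrome tautomerase of melanin synthesis, trunk crest held 1221, 1456 and 920.3 CPM and non-crest 0.220, 0.702 and 0.222 CPM (11.58 ± 0.67, adjusted p = 0.000211). Cardiac crest libraries, at 0.0901 to 0.282 CPM, overlapped the non-crest ones. For pax7b, a transcription factor of crest and of the xanthophore lineage, the 3 trunk crest libraries held 500.0, 589.6 and 654 CPM and those of non-crest 66.1, 31.5 and 60.6 CPM (3.45 ± 0.35, adjusted p = 0.000944). Cardiac crest stood at 31.7, 85.4 and 38.4 CPM of pax7b, which overlapped non-crest (-0.02 ± 0.46, adjusted p = 0.994).

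**Figure D1:**
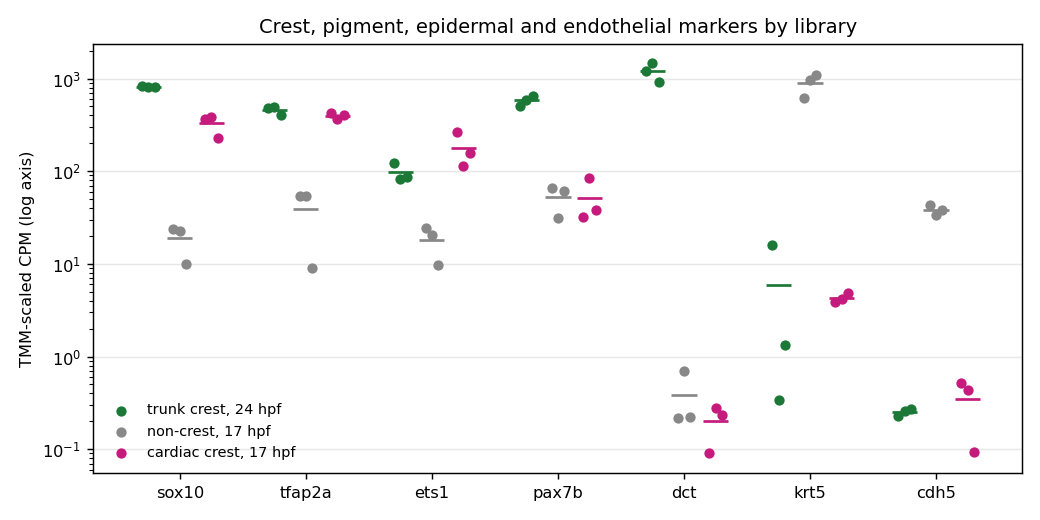
Levels of 7 marker genes in each library, in TMM-scaled CPM on a log axis, with trunk crest in green, non-crest in grey and cardiac crest in magenta; points are libraries and short lines are group means (n = 3). Trunk crest lies above non-crest for sox10, tfap2a, ets1, pax7b and dct and below it for krt5 and cdh5, and cardiac crest stands beside trunk crest for tfap2a and beside non-crest for dct and pax7b.

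Of 18306 genes tested, 3959 differed between trunk crest and non-crest at an adjusted p below 0.05 (21.6%), 2016 of them higher in trunk crest (11%) and 1943 lower (10.6%). The libraries of the groups did not overlap in 44.4% of tested genes. The median log2 fold change over all tested genes was -0.14, and moved to -0.25 with upper-quartile scaling. Leaving out 1 trunk crest library gave 1882 to 2165 calls, leaving out non-crest replicate 1 gave 2388 and leaving out non-crest replicate 3 gave 5414; 1592 of the 3959 calls were made without each of the 6 libraries in turn. Of the called genes, 366 of the 2016 higher and 413 of the 1943 lower ones share bases with another gene, as do 4318 of the 20847 genes in both tables.

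The 10 higher genes with the largest log2 fold change were gch2, mocos, tyrp1b, slc22a7a, dct, bscl2l, syngr1a, tmem130, pnp4a and pah. Of these, gch2, mocos, pnp4a and pah encode enzymes of pteridine, molybdenum cofactor, purine and phenylalanine metabolism. The pair tyrp1b and dct encode enzymes of melanin synthesis. Transporter gene slc22a7a stood at 402, 349.7 and 384 CPM in trunk crest, with 7, 2 and 1 reads in the non-crest libraries (12.11 ± 0.64). The gene bscl2l lay at 485, 671 and 431 CPM in trunk crest and at or below 0.234 CPM in each non-crest library (11.57 ± 0.63). For syngr1a, a synaptogyrin gene of vesicle membranes, the trunk crest libraries held 2261, 3169 and 2533 CPM and the non-crest libraries 0.781, 2.04 and 0.297 CPM (11.29 ± 0.86). Transcripts of tmem130 stood at 303, 369 and 374 CPM against at most 0.398 CPM (10.67 ± 0.80). Adjusted p was 0.000211 for slc22a7a and bscl2l and 0.000432 for syngr1a and tmem130, and in each of these genes the groups were far apart.

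**Figure D2:**
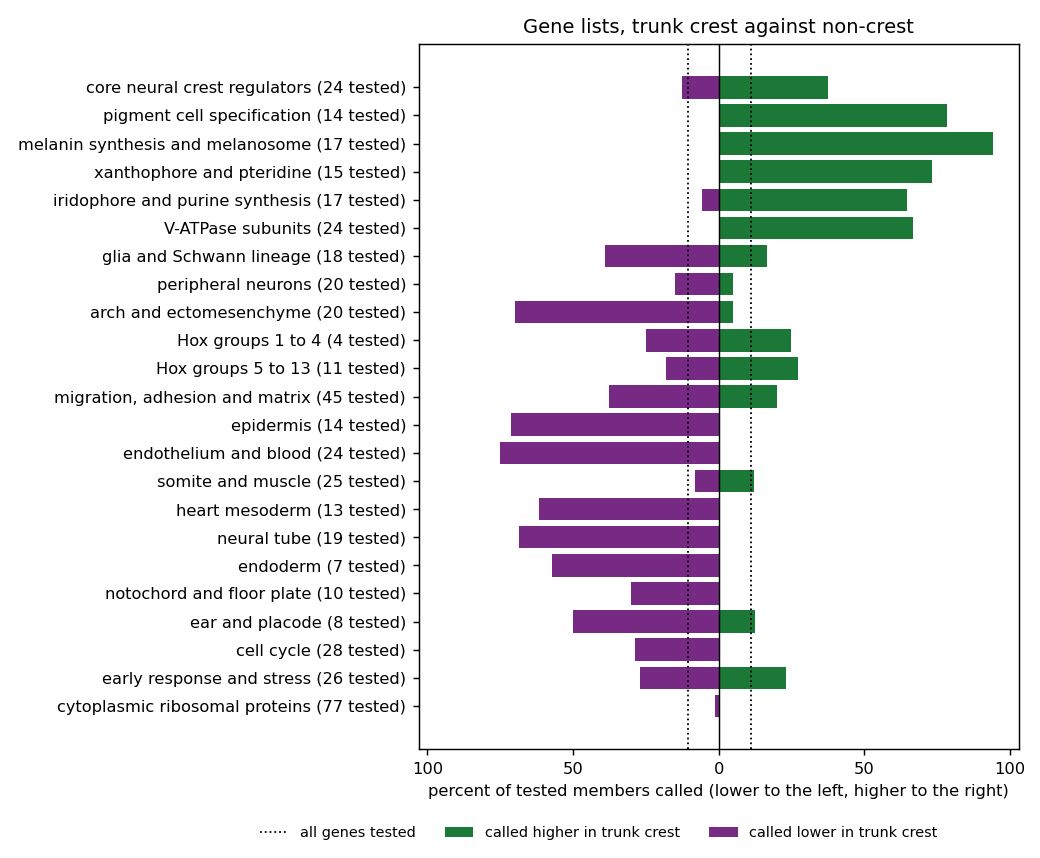
Share of each gene list's tested members that was called higher (green, to the right) or lower (purple, to the left) in trunk crest than in non-crest, in percent; dotted lines mark the share over all genes tested (11% higher and 10.6% lower). The pigment and V-ATPase lists extend to the right, and the arch, epidermis, endothelium, heart and neural tube lists to the left.

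Among transcription factors of the crest programme, 9 of 24 tested members were higher in trunk crest (37.5%) and 3 lower (12.5%). All genes tested gave 11% and 10.6%, so the share lower is near that over all genes. The median log2 fold change was 0.98 against -0.14 over all genes. Those higher were tfap2e, sox10, tfap2a, pax7b, pax7a, msx2b, snai2, msx1b and ets1. Of these, sox10 was selected by the sort. For msx1b, a homeobox gene of the neural plate border, the means were 1018 ± 164 CPM in trunk crest and 162 ± 109.9 CPM in non-crest (2.63 ± 0.54, adjusted p = 0.0134). For snai2, a repressor of epithelial genes in migrating crest, they were 309 ± 88.8 and 47.5 ± 11.6 CPM (2.69 ± 0.33, adjusted p = 0.00176). The cranial and cardiac crest factor ets1 stood at 123, 82.4 and 85.8 CPM in trunk crest against 24.4, 20.4 and 9.74 CPM in non-crest (2.39 ± 0.41, adjusted p = 0.00713).

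All 3 lower calls were lost without trunk crest replicate 2 or non-crest replicate 1. Among them were sox9a and pax3a (highest adjusted p 0.14 and 0.0988 without 1 library). The twist genes, which act in crest that forms mesenchyme, did not pass the test. Mean levels of twist1a were 7.46 ± 6.75 CPM in trunk crest and 154 ± 76.4 CPM in non-crest (adjusted p = 0.0544), while cardiac crest held 638 ± 340.4 CPM. The crest genes foxd3 and crestin were not matched and are not analysed here.

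Genes that specify pigment cells were higher in trunk crest in 11 of 14 tested members (78.6%, against 11% over all genes). None was lower, and the median log2 fold change was 4.58. The exceptions were erbb3b, kitb and mitfb. The 11 include sox10, which the sort selected. Of the 11, sox10, pax7a, pax7b and tfap2e are also on the crest list. The gene csf1ra is also on the xanthophore list, and ltk and ednrba are on the iridophore list. Counts of these lists are therefore not independent. The melanophore master regulator mitfa stood at 177 ± 72.0 CPM in trunk crest and 3.07 ± 3.73 CPM in non-crest (5.82 ± 1.14, adjusted p = 0.0116). For tfec, a related factor of early pigment progenitors and iridophores, the means were 344 ± 97.2 and 7.52 ± 6.35 CPM (5.49 ± 1.13, adjusted p = 0.0137). Receptor genes of all 3 lineages were among the 11: kita, the receptor of melanophores, stood at 13.8 ± 1.40 CPM against 0.408 ± 0.272, csf1ra of xanthophores at 6.42 ± 3.04 against 0.361 ± 0.0987, and ltk of iridophores at 11.1 ± 3.04 against 1.31 ± 0.650.

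The melanocortin receptor gene mc1r was counted 486, 499 and 406 times in the trunk crest libraries and 3, 0 and 0 times in non-crest, a ratio of 804 with a 95% counting interval of 275 to 3903. Cardiac crest held no mc1r reads in any library. For ednrba, an endothelin receptor of pigment progenitors, trunk crest held 53.6, 71.9 and 81.6 CPM and non-crest at most 0.342 CPM (8.92 ± 1.03, adjusted p = 0.00153). Cardiac crest lay between them at 9.68, 8.15 and 5.01 CPM of ednrba, and its own difference from non-crest did not pass the test (adjusted p = 0.0825).

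Melanin and melanosome genes were higher in 16 of 17 tested members (94.1%, against 11% over all genes), with none lower. The median log2 fold change was 5.51 (2.03 for cardiac crest over non-crest, where no member was called). Enzyme transcripts led the list. Those of tyrp1b (chromosome 1, 18639900 to 18653111), a tyrosinase-related protein, stood at 1978, 2947 and 1980.1 CPM in trunk crest against 0.268, 0.702 and 0 CPM in non-crest (12.75 ± 1.20, adjusted p = 0.000738). For tyr, encoding tyrosinase itself, the means were 62.1 ± 11.8 and 0.279 ± 0.161 CPM (7.76 ± 0.58, adjusted p = 0.000432). No non-crest library held more than 30 reads of tyrp1b, and no trunk crest library fewer than 43257.

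Melanosome transport and structure genes rose with the enzymes. The transporter gene slc45a2 stood at 373, 514 and 390.1 CPM in trunk crest against 3.37, 0.538 and 0.717 CPM in non-crest (8.09 ± 0.86, adjusted p = 0.00111). For oca2, an anion channel gene of the melanosome membrane, the means were 65.1 ± 20.8 and 4.24 ± 2.42 CPM (3.93 ± 0.59, adjusted p = 0.00418). The small GTPase gene rab32a of melanosome traffic lay at 1024 ± 169.9 against 4.85 ± 6.34 CPM (7.69 ± 1.30, adjusted p = 0.00648), and the channel gene trpm1b at 1254 ± 241 against 7.66 ± 7.89 CPM (7.33 ± 1.26, adjusted p = 0.00693). The fibril gene pmela was higher too (6.90 ± 0.66), while the paralogue pmelb, at 19.5 ± 4.62 against 1.49 ± 2.47 CPM, was the member that did not pass (adjusted p = 0.122); non-crest held 178, 3 and 2 of its reads.

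Xanthophore and pteridine genes were higher in 11 of 15 tested members (73.3%, against 11% over all genes). None was lower, and the median was 4.64. The leading gene of the whole comparison was gch2 (chromosome 12, 24994391 to 25001210), encoding a GTP cyclohydrolase that opens pteridine synthesis. It held 51351, 51816 and 47330.4 CPM in the trunk crest libraries and 3.05, 2.32 and 0 CPM in non-crest (14.74 ± 1.69, adjusted p = 0.00149). The groups did not overlap, and cardiac crest lay between them at 10.5, 14.1 and 41.2 CPM.

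Other steps of the pteridine pathway followed. The aldo-keto reductase gene akr1b1 stood at 6819.6, 10120.2 and 8659.7 CPM in trunk crest against 7.71, 27.2 and 2.55 CPM in non-crest (9.39 ± 1.03, adjusted p = 0.00127). Sepiapterin reductase gene sprb lay at 111, 34.5 and 37.0 CPM against 0.0732, 0.0468 and 0.148 CPM (9.35 ± 0.80, adjusted p = 0.00054). Its trunk crest level was about level in replicates 2 and 3 and highest in replicate 1. The xanthophore gene aox5 rested on a less even background, with 90, 1392 and 9 reads in the non-crest libraries, and its means were 470.1 ± 35.7 and 11.7 ± 18.1 CPM (5.31 ± 1.51, adjusted p = 0.0429).

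Biopterin is also the cofactor of phenylalanine hydroxylation, and the genes that regenerate it stood high. Transcripts of qdpra, encoding dihydropteridine reductase, lay at 582, 819 and 746 CPM in trunk crest against 22.01, 14.2 and 19.99 CPM in non-crest (5.24 ± 0.32, adjusted p = 0.000211). For pcbd1, the carbinolamine dehydratase of the same cycle, the levels were 486, 635 and 629 CPM against 20.1, 22.6 and 27.1 CPM (4.64 ± 0.28, adjusted p = 0.000211). Phenylalanine hydroxylase gene pah stood at 947, 1308 and 1039.8 CPM against 3.17, 0.959 and 0.0247 CPM (9.60 ± 1.35, adjusted p = 0.00329). No non-crest library came near the trunk crest range of any of the 3 genes.

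Iridophore and purine synthesis genes were higher in 11 of 17 tested members (64.7%) and lower in 1 (5.9%), with a median of 2.75. All genes tested gave 11% and 10.6%. The purine nucleoside phosphorylase gene pnp4a, a marker of iridophores, held 605, 885 and 596 CPM in trunk crest and 2.15, 0.0702 and 0.0247 CPM in non-crest (9.83 ± 1.54, adjusted p = 0.0049). Enzymes of de novo purine synthesis differed less, with ppat, the first committed step, at 1029.5 ± 52.3 against 67.2 ± 7.13 CPM (3.93 ± 0.24, adjusted p = 0.000211) and impdh1b of guanine nucleotide synthesis at 2036 ± 290.3 against 123 ± 47.9 CPM (4.04 ± 0.37, adjusted p = 0.000679). The homeobox gene alx4a stood at 159.8, 102 and 191 CPM against 6.71, 12.2 and 4.13 CPM (4.28 ± 0.50, adjusted p = 0.00162). The member lower in trunk crest was fhl2a, with 2, 4 and 4 reads there and 16.1, 32.0 and 3.83 CPM in non-crest (-6.92 ± 1.00, adjusted p = 0.00371).

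Subunits of the vacuolar proton pump (V-ATPase), which acidifies organelles such as the early melanosome, were higher in 16 of 24 tested members. That is 66.7%, against 11% over all genes, with none lower and a median of 3.08. The stalk subunit gene atp6v1g1 lay at 1277, 1690.1 and 1530.2 CPM in trunk crest against 72.6, 100.4 and 54.7 CPM in non-crest (4.29 ± 0.33, adjusted p = 0.000432). The proton-channel ring gene atp6v0ca had means of 1120 ± 226 and 142 ± 29.0 CPM (2.97 ± 0.29, adjusted p = 0.000767). Over non-crest, cardiac crest had no called member in the V-ATPase list and a median of 0.35. In the direct comparison with cardiac crest, trunk crest was higher in 17 of 17 melanin and 12 of 15 xanthophore members. It was higher in 12 of 17 iridophore and 17 of 24 V-ATPase members, where 13.3% of all tested genes were called higher. Trunk and cardiac crest also differ in age, axial level, line, reporter and library series, whose parts were not tested.

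**Figure D3:**
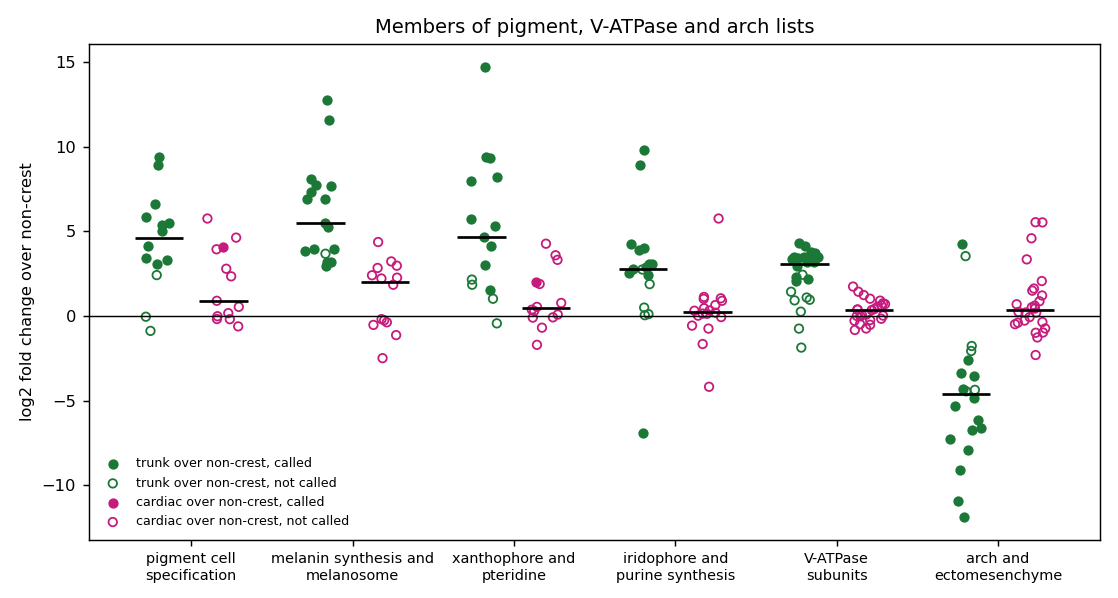
Log2 fold change over non-crest of each tested member of 6 gene lists, for trunk crest (green) and cardiac crest (magenta); filled points passed the test at an adjusted p below 0.05, and black lines are list medians. Trunk crest members of the pigment and V-ATPase lists lie mostly above 0 and those of the arch list below it, while the cardiac crest medians lie between 0.25 and 2.03.

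Arch and ectomesenchyme genes, which mark crest bound for skeleton and connective tissue, were lower in trunk crest in 14 of 20 tested members and higher in 1. These shares are 70% and 5%, against 10.6% and 11% over all genes, and the median was -4.64. In cardiac crest the median over non-crest was 0.34 and no member was called. Summed over the list, trunk crest (563 to 1277 CPM) overlapped non-crest (511 to 930 CPM). All cardiac crest libraries lay higher (1951 to 4830 CPM). Most of the mean trunk crest sum came from ednrab (728 ± 332 CPM), so the overlap does not show similar levels across the list. The mesenchyme gene prrx1b had 1 read in all 3 trunk crest libraries together against 13.7, 10.04 and 5.51 CPM in non-crest, a ratio of 699 with a counting interval of 125 to 27630. For hand2, a factor of the ventral arches and the heart, 1 trunk crest read stood against 40.3, 18.5 and 43.1 CPM (ratio 2415, interval 433 to 95396). The receptor gene pdgfra of crest mesenchyme lay at 0.753 ± 0.431 CPM in trunk crest, 76.3 ± 51.7 in non-crest and 175 ± 35.3 in cardiac crest (-6.65 ± 0.78 over non-crest, adjusted p = 0.00158). The member higher in trunk crest was alx4a, which is also on the iridophore list. Endothelin receptor gene ednrab did not pass (728 ± 332 against 61.4 ± 57.1 CPM, adjusted p = 0.0816).

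Glial and Schwann lineage genes were mixed, with 3 of 18 higher (16.7%), 7 lower (38.9%) and a median of -1.01, against 11% and 10.6% over all genes. Without trunk crest replicate 1 or non-crest replicate 2, 1 was higher. The 3 higher were cdh19, foxo1a and sox10, the last of which the sort selected. The cadherin gene cdh19 of Schwann cell precursors stood at 9.55, 2.31 and 2.15 CPM in trunk crest against 0.342, 0.140 and 0.445 CPM in non-crest (3.89 ± 0.92, adjusted p = 0.0224, and 0.0891 without trunk crest replicate 1). Lower members included genes that the neural tube also expresses. Among them were gfap, with 37, 5 and 0 trunk crest reads against 246, 97.5 and 87.7 CPM in non-crest (-8.03 ± 1.23, adjusted p = 0.00456), the hindbrain and Schwann factor egr2b (-6.78 ± 0.95) and the myelin gene mpz (-8.07 ± 0.68).

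Of 20 tested peripheral neuron genes 1 was higher and 3 lower, with a median of 0.04, which is near the share called over all genes (21.6%). The sensory factor gene prdm12b was the member higher, at 278, 98.3 and 99.5 CPM in trunk crest against 47.6, 31.8 and 23.4 CPM in non-crest (2.19 ± 0.51, adjusted p = 0.0206, and 0.0689 without non-crest replicate 2). Other sensory neuron genes were uneven among libraries: isl1 had 4268, 1647 and 376 reads in trunk crest and did not pass (adjusted p = 0.169). The summed level of the list was 897 CPM in trunk crest replicate 1 and 317 and 323 CPM in the other two, against 260 to 520 CPM in non-crest. Those lower were neurod1, hand2 and the autonomic factor phox2bb. Of these, neurod1 had 2 trunk crest reads in all and 19.8 to 65.9 CPM in non-crest (ratio 1339, interval 370.4 to 11058), and phox2bb lost its call without 1 library (adjusted p up to 0.126).

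Hox genes, whose order along the chromosome follows the body axis, went both ways. Of paralogue groups 5 to 13, 3 of 11 tested genes were higher (27.3%) and 2 lower (18.2%) in trunk crest, against 11% and 10.6% over all genes. Leaving out non-crest replicate 3 gave 7 higher, while leaving out any other of the 6 libraries gave 1. Transcripts of hoxb9a stood at 417, 449 and 364 CPM in trunk crest against 89.6, 76.9 and 43.7 CPM in non-crest (2.53 ± 0.33, adjusted p = 0.00247). For hoxb7a they stood at 270.1, 333 and 287 CPM against 14.3, 15.3 and 86.4 CPM (2.94 ± 0.71, adjusted p = 0.0241, and 0.0771 without trunk crest replicate 2). The high non-crest library was replicate 3, which also held the most non-crest reads of hoxd9a (61, 12 and 1084) and hoxb10a (10, 6 and 817). Both posterior genes, at 126 ± 30.5 and 84.3 ± 20.1 CPM in trunk crest, did not pass the test.

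The more anterior genes hoxb5b and hoxb1b lay lower. Levels of hoxb5b were 17.2, 20.8 and 26.1 CPM in trunk crest and 209, 179 and 145 CPM in non-crest (-3.07 ± 0.30, adjusted p = 0.000832), and hoxb1b fell from 117, 92.2 and 191 CPM in non-crest to 21.6, 28.0 and 22.6 CPM (-2.48 ± 0.34, adjusted p = 0.00286). Only 13 of the 35 listed genes of groups 5 to 13 and 4 of the 14 of groups 1 to 4 were in both tables, and of those 4, 1 was called higher (hoxc3a) and 1 lower (hoxb1b). Tissue reached to somite 6 in non-crest and began at somite 7 in trunk crest, so that axial level moves with these values and cannot be told apart from cell type.

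Genes of migration, adhesion and matrix were higher in 9 and lower in 17 of 45 tested members (20% and 37.8%), with a median of -1.05. Over all genes the shares were 11% and 10.6%. Without trunk crest replicates 1, 2 and 3 in turn there were 4, 5 and 5 higher and 11, 10 and 14 lower, and without non-crest replicate 1 there were 4 higher. Integrin gene itga4, a subunit of a fibronectin receptor, stood at 45.003, 30.1 and 35.4 CPM in trunk crest against 1.95, 3.23 and 1.68 CPM in non-crest (3.99 ± 0.44, adjusted p = 0.00125). The guidance gene sema3fa lay at 86.0, 129 and 92.0 CPM against 19.0, 7.06 and 2.94 CPM (3.38 ± 0.67, adjusted p = 0.0121). Matrix and chemokine genes were among those lower. The versican gene vcana had 3, 6 and 0 trunk crest reads against 30.6, 12.6 and 134 CPM in non-crest (-8.84 ± 1.30, adjusted p = 0.00394), and the chemokine gene cxcl12a lay at or below 1.01 CPM against 55.7 to 78.6 CPM (-7.36 ± 0.88, adjusted p = 0.00173). The neural cadherin gene cdh2 had means of 15.9 ± 7.83 and 263 ± 46.0 CPM (-4.07 ± 0.42, adjusted p = 0.00104).

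Many markers of skin, vessels, blood, heart, neural tube and endoderm were lower in trunk crest. Epidermal genes were lower in 10 of 14 tested members and endothelial and blood genes in 18 of 24, with none higher and medians of -5.40 and -4.79. Heart mesoderm genes were lower in 8 of 13, neural tube genes in 13 of 19, endoderm genes in 4 of 7 and notochord and floor plate genes in 3 of 10, again with none higher. Without trunk crest replicate 1 notochord and floor plate had 5 lower. Of 8 tested ear and placode genes 4 were lower and 1 higher. Beside these counts, 10.6% of all genes tested were lower and 11% higher. The summed epidermal level was 427 to 706 CPM in trunk crest and 8035 to 18012 CPM in non-crest, and the summed endothelial and blood level 34.4 to 70.0 against 1092 to 3157 CPM. For both lists all non-crest libraries lay above all libraries of either crest group. Summed neural tube levels overlapped, at 1146 to 1846 CPM in trunk crest and 786 to 2611 CPM in non-crest, although 7 of the 21 genes had no trunk crest read.

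Summed muscle transcripts did not follow that order. Trunk crest libraries held 33177, 8927 and 12385 CPM of the 26 muscle genes, non-crest 13864, 13152 and 12772 CPM, and cardiac crest 266, 239 and 11512 CPM. Trunk crest replicate 1 was the highest of all 9 libraries and cardiac crest replicate 3 stood apart from its group. The actin gene actc1b, with 465383, 116688 and 156903 reads in trunk crest, had means of 9935 ± 6753 CPM there and 7203 ± 601 CPM in non-crest. Of 25 tested muscle genes 3 were higher in trunk crest, the fast-fibre troponin genes tnni2a.4, tnnt3b and tnnt3a, and 2 lower, the somite genes meox1 and ripply1, a share near that called over all genes. The higher calls fell to 1 without trunk crest replicate 1 or 3 or non-crest replicate 2, and both lower calls were lost without trunk crest replicate 2. For tnnt3b the levels were 95.9, 20.1 and 29.5 CPM against 6.42, 3.205 and 3.61 CPM (3.44 ± 0.68, adjusted p = 0.0118). The part of muscle RNA in the other differences was not tested.

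**Figure D4:**
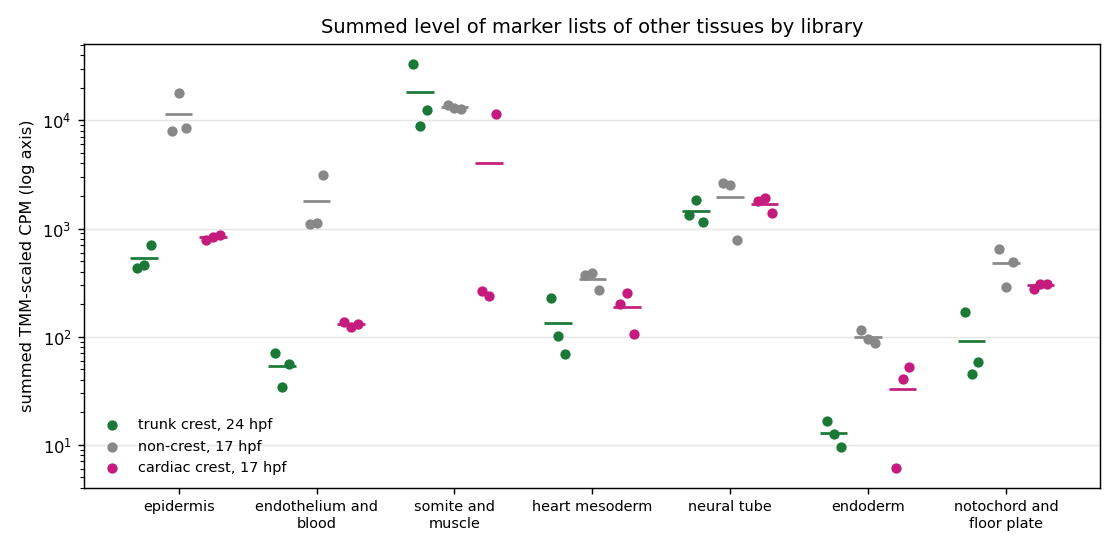
Summed TMM-scaled CPM (log axis) of 7 marker lists of other tissues in each library; points are libraries, short lines are group means (n = 3), with trunk crest in green, non-crest in grey and cardiac crest in magenta. Epidermal and endothelial sums are higher in all non-crest libraries than in any crest library, while muscle sums of trunk crest (8927 to 33177) span those of non-crest (12772 to 13864), and cardiac crest replicate 3 is far above the other cardiac crest libraries.

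The 10 lower genes with the largest fitted log2 fold change were, apart from cldnf, transcription factor genes. For genes without a trunk crest read the fitted value is no measured fold, so their order is not a rank of size. Measured ratios of other genes exceed several of the bounds given here, with aplnra at 3375 (interval 605 to 133322) and hhex at 2295 (412 to 90681). No trunk crest library held a read of sox19a (chromosome 5, 23695380 to 23697637), a SoxB1 factor of neural progenitors, against 602, 543 and 227 CPM in non-crest, where 57092 reads were counted. With a floor of 3 reads over the trunk crest group it was at least 10975-fold lower. By the same floor the claudin gene cldnf was at least 2651-fold, the neural patterning genes irx1b 1541-fold, pou3f3a 1337-fold, lbx1b 1128-fold, nkx6.1 609-fold and irx7 569-fold, and the forkhead genes foxf2a 347-fold and foxa2 335-fold lower. The trunk crest libraries held 1, 1 and 0 reads of tal1, a master factor of blood, against 129, 169 and 331 CPM in non-crest (ratio 7462, interval 2066 to 61621). Cardiac crest held sox19a at 77.5, 109 and 312 CPM, and trunk crest lay below cardiac crest as well (adjusted p = 0.000385).

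Cell cycle genes were lower in 8 of 28 tested members (28.6%, against 10.6% over all genes) and higher in none, with a median of -0.79. Without trunk crest replicates 1, 2 and 3 in turn there were 5, 4 and 5 lower, and without non-crest replicate 3 there were 14. The proliferation marker mki67 stood at 81.3, 85.4 and 95.9 CPM in trunk crest against 439, 272 and 366 CPM in non-crest (-2.05 ± 0.27, adjusted p = 0.00242), and topoisomerase gene top2a at 29.3, 19.3 and 22.6 CPM against 142, 102 and 85.6 CPM (-2.23 ± 0.32, adjusted p = 0.00358). The replication clamp gene pcna, at 798 ± 4.34 against 1328 ± 243 CPM, did not pass (adjusted p = 0.0562). Of 77 tested genes of cytoplasmic ribosomal proteins 1 was called, with a list median of -0.13.

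Early response and stress genes went both ways, 6 of 26 higher (23.1%) and 7 lower (26.9%) with a median of 0.22. Over all genes tested 11% were higher and 10.6% lower. The heat-shock gene hsp70l stood at 4020.1, 2434 and 3233 CPM in trunk crest against 111, 76.3 and 155 CPM in non-crest (4.81 ± 0.38, adjusted p = 0.000443), and gadd45aa, a gene induced by DNA damage and stress, at 134, 186 and 200.2 CPM against 11.1, 9.90 and 4.35 CPM (4.34 ± 0.45, adjusted p = 0.00104). The stress factor gene atf3 was higher as well (2.23 ± 0.60). Immediate-early genes were among those lower: egr1 had a mean of 104 ± 4.97 CPM in non-crest and 499, 169 and 140 reads in trunk crest (-3.28 ± 0.47, adjusted p = 0.00365) and ier2b had means of 81.9 ± 19.7 and 742 ± 273 CPM (-3.20 ± 0.39, adjusted p = 0.0019). The dissociated embryos differed in age and line, and the part of handling in these values was not tested.

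Both crest groups were set against the same 3 non-crest libraries to ask which genes they share. Cardiac crest differed from non-crest in 224 of 19318 tested genes (1.16%), 54 higher (0.28%) and 170 lower (0.88%). Of 17962 genes tested in both comparisons 44 were higher in both crest groups (0.245%), which is 81.5% of the genes higher in cardiac crest and 2.18% of those higher in trunk crest. The shared non-crest libraries enter both sides, so the count is a description with no test. Of the 44, 10 share bases with another gene, beside 4318 of the 20847 genes in both tables. Only 8 were called without each of the 9 libraries in turn, among them marveld1, olfcg1 and sox10, the last selected by the sort. All of these 8 except sox10 share bases with another gene. The share ran from 0.397% in si:ch73-156l6.2 to 31.1% in si:ch211-271g18.1, and was 19.95% in marveld1. Without cardiac crest replicate 1 or 2 the count was 10.

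Settled gene symbols were available for 31 of the 44. They include the crest regulators sox10 and ets1 together with id2a, an inhibitor of bHLH factors. Both crest groups were sorted by sox10 promoter activity, so the place of sox10 here checks the sort and is no finding. Levels of id2a were 637, 757 and 502 CPM in trunk crest. They were 140.2, 186 and 120.3 CPM in non-crest and 928, 838 and 429 CPM in cardiac crest. The log2 fold changes of id2a over non-crest were 2.07 ± 0.29 and 2.29 ± 0.39 (adjusted p = 0.0031 and 0.0364). In the direct comparison trunk and cardiac crest did not differ in id2a beyond their spread (-0.23 ± 0.31, adjusted p = 0.636). For tfap2a the change was nearly as large in cardiac crest (3.34 ± 0.64) as in trunk crest, but missed the threshold there (adjusted p = 0.0562).

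Several shared genes act in signalling, adhesion and the cytoskeleton. The kinase inhibitor gene inka1a, known in crest and mesoderm of fish and frog, stood at 857, 971 and 639 CPM in trunk crest, 19.9, 17.9 and 48.0 CPM in non-crest and 449.9, 236 and 749 CPM in cardiac crest (4.84 ± 0.47 and 4.06 ± 0.58, adjusted p = 0.000846 and 0.018). The filamin regulator gene rflnb lay at 92.5, 78.9 and 52.3 CPM, 1.64, 3.37 and 7.81 CPM and 83.8, 56.6 and 29.6 CPM in the same order (4.12 ± 0.61 and 3.74 ± 0.66). For cdh19 cardiac crest was the more uniform group, at 12.1, 9.32 and 12.6 CPM (5.19 ± 0.65, adjusted p = 0.00903). Protocadherin gene pcdh9 was shared as well, with 65.8, 94.3 and 74.5 CPM in trunk crest and 42.0, 45.8 and 25.6 CPM in cardiac crest against 5.54, 3.51 and 1.26 CPM. In all of these both crest groups lay above every non-crest library.

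Receptor and metabolic genes were also shared. The vitamin E transfer protein gene ttpa lay at 7.42, 11.7 and 12.04 CPM in trunk crest and 19.9, 8.96 and 14.9 CPM in cardiac crest, with 10, 2 and 0 reads in non-crest (6.67 ± 1.19 and 7.18 ± 1.13, adjusted p = 0.00795 and 0.0256). For cysltr1, a leukotriene receptor gene, the levels were 8.45, 10.1 and 12.04 CPM and 29.9, 21.8 and 10.6 CPM against at most 0.632 CPM (4.86 ± 0.80 and 5.89 ± 0.82). The olfactory-type receptor gene olfcg1 stood at 154, 245 and 210.2 CPM and 341, 281 and 235 CPM against 18.4, 18.0 and 7.09 CPM (3.79 ± 0.45 and 4.29 ± 0.47). It belongs to a large family, has 15.3% of its bases in another gene and was counted over its introns, so its reads may not all be its own.

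**Figure D5:**
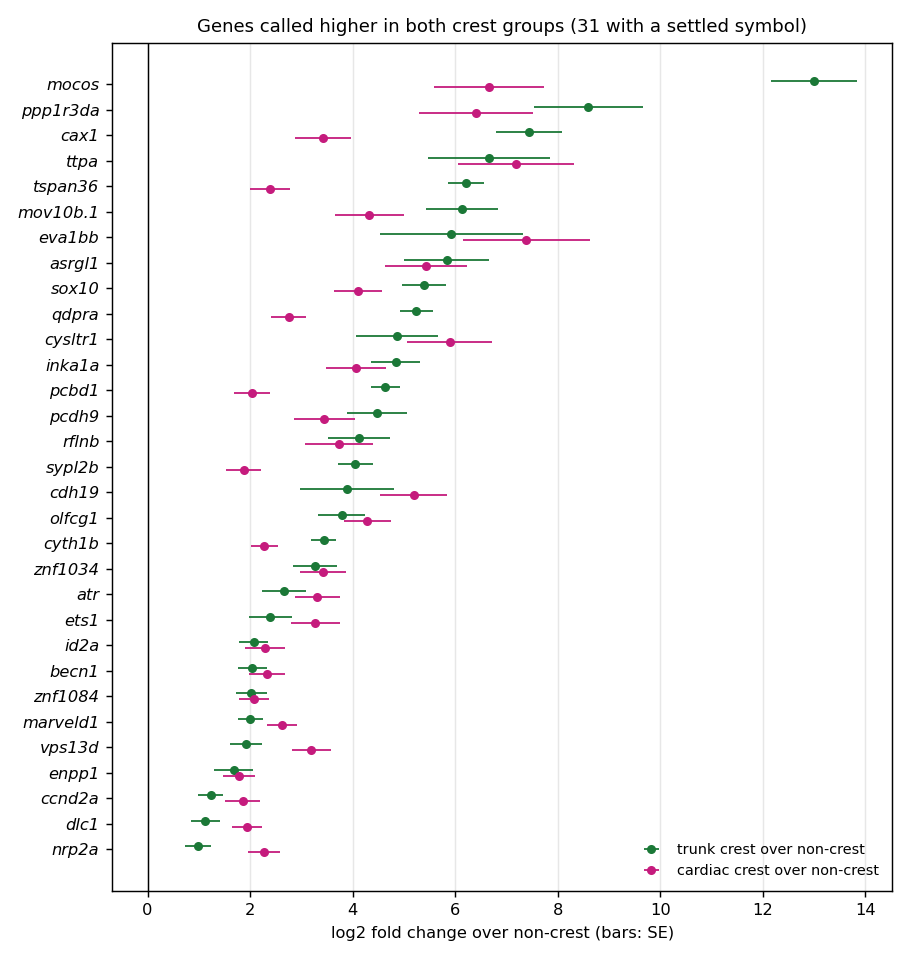
Log2 fold change over non-crest of the 31 genes with a settled symbol that were called higher in both trunk crest (green) and cardiac crest (magenta); bars are standard errors (3 libraries a group). For mocos, cax1, tspan36, qdpra, pcbd1 and sypl2b the trunk crest value lies well above the cardiac one, and for nrp2a, dlc1 and vps13d below it.

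Within the 44 shared genes, the direct comparison of the crest groups called 16 higher in trunk crest, 4 lower, and 24 neither. Age, axial level, line, reporter and library series differ between these groups and cannot be told apart. Among the shared genes with a settled symbol the largest differences were in mocos, cax1 and tspan36. Molybdenum cofactor sulfurase gene mocos (chromosome 13, 16130120 to 16147839), which activates xanthine dehydrogenase, stood at 1008, 966 and 914 CPM in trunk crest, 9.95, 17.3 and 8.00 CPM in cardiac crest and 0.146, 0.187 and 0 CPM in non-crest. Trunk crest exceeded cardiac crest by 6.33 ± 0.37 (log2, adjusted p = 4.4e-05), and both exceeded non-crest (by 13 ± 0.84 and 6.67 ± 1.07). The tetraspanin gene tspan36 of pigment cells lay at 3020.2, 4518 and 3908 CPM in trunk crest, 366, 273 and 165 CPM in cardiac crest and 43.6, 41.8 and 68.6 CPM in non-crest.

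The biopterin genes qdpra and pcbd1 were in this group too, with 166, 112 and 101 CPM and 118, 108 and 59.99 CPM in cardiac crest. The exchanger gene cax1 stood at 979, 932 and 883 CPM in trunk crest, 64.7, 55.6 and 49.4 CPM in cardiac crest and 9.86, 2.69 and 3.29 CPM in non-crest. The differences between the crest groups were 2.49 ± 0.25 for qdpra, 2.60 ± 0.29 for pcbd1 and 4.03 ± 0.20 for cax1 (adjusted p = 0.000391, 0.000602 and 3.6e-05). The RNA helicase gene mov10b.1 had a smaller step, from 49.4, 36.8 and 45.9 CPM in cardiac crest to 148, 144 and 171 CPM in trunk crest (1.80 ± 0.20, adjusted p = 0.000493). Trunk crest, cardiac crest and non-crest libraries fell in 3 separate ranges for each of these genes.

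The 4 shared genes higher in cardiac than in trunk crest were nrp2a, dlc1, vps13d and marveld1. The semaphorin co-receptor gene nrp2a stood at 71.7, 74.4 and 87.0 CPM in trunk crest, 42.0, 34.6 and 40.7 CPM in non-crest and 234, 201 and 133 CPM in cardiac crest (trunk over cardiac -1.30 ± 0.25, adjusted p = 0.0068). For dlc1 the cardiac crest libraries held 194, 195 and 259 CPM and those of trunk crest 92.8, 152 and 126 CPM (-0.82 ± 0.23, adjusted p = 0.0331). The lipid transfer gene vps13d and marveld1 differed by -1.28 ± 0.28 and -0.62 ± 0.18.

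Genes without a difference between the crest groups included the zinc finger gene znf1034, at 59.2, 72.2 and 73.7 CPM in trunk crest and 87.1, 84.7 and 54.5 CPM in cardiac crest against 9.25, 8.07 and 3.68 CPM in non-crest (-0.16 ± 0.24 for trunk over cardiac, adjusted p = 0.683). The autophagy gene becn1 had log2 fold changes of 2.04 ± 0.28 and 2.32 ± 0.35 over non-crest, the cyclin gene ccnd2a 1.23 ± 0.24 and 1.85 ± 0.34, and enpp1, which makes pyrophosphate, 1.68 ± 0.38 and 1.79 ± 0.31. A difference that misses the threshold does not show equal levels. Between 32511834 and 57336533 on chromosome 4 lie znf1034, znf1084 and several shared genes without a settled symbol. A share of 32.02% of the bases of znf1084 lies in another gene. Whole gene bodies were counted without use of strand, as stated for non-crest and assumed for trunk crest. Reads of these genes, and of becn1 and vps13d, may therefore not all be their own.

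Most genes higher in trunk crest were not called higher in cardiac crest, where only 54 genes were called higher over non-crest. A missed call does not show that cardiac crest equals non-crest. For gch2, all cardiac crest libraries lay above all non-crest libraries without a call. Of the 2016, 1482 were not called higher in cardiac crest and were higher in trunk than in cardiac crest by the direct test, among them dct, gch2, mc1r and the gap junction gene cx30.3. Trunk crest held 519, 510.3 and 429.8 CPM of cx30.3 and non-crest 18.7, 54.4 and 11.0 CPM (4.09 ± 0.62, adjusted p = 0.00422), while 0, 0.615 and 0 CPM were found in cardiac crest. A further 490 genes higher in trunk crest were neither called higher in cardiac crest nor called in the direct comparison. In the other direction 9 genes higher in cardiac crest were not called in trunk crest, 4 of which, gh1 included, were too low there and in non-crest to be tested. These 9 include cdh6, a cadherin gene of early crest, at 225, 241 and 237 CPM in cardiac crest against 35.5, 29.8 and 37.2 CPM in trunk crest and 74.0, 47.8 and 47.6 CPM in non-crest, and the growth hormone gene gh1. Cardiac crest held 2533, 2387 and 911 CPM of gh1, and the 3 trunk crest libraries held 2 reads in all against 5, 7 and 9 reads in non-crest.

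Lower in both crest groups were 138 genes (0.768%), 81.2% of those lower in cardiac crest and 7.10% of those lower in trunk crest. They include genes of blood, vessels and skin. The vascular factor gene etv2 had 19, 0 and 0 reads in trunk crest and 1.01, 0 and 0.909 CPM in cardiac crest against 151, 152 and 688 CPM in non-crest (-10.33 ± 1.47 and -8.99 ± 1.35, adjusted p = 0.00345 and 0.022). The epiplakin gene eppk1 of epithelia lay at or below 0.458 CPM in trunk crest and 1.20 CPM in cardiac crest against 225, 331 and 161 CPM (-9.80 ± 0.59 and -8.21 ± 0.56). The cyclooxygenase gene ptgs2b was counted 2 times in trunk crest and stood at 46.3, 75.6 and 42.8 CPM in non-crest. Of the epidermal list 6 members were lower in both, and of the endothelium and blood list 10. For 81 of the 107 shared lower genes tested between the crest groups no difference was called. The keratin gene krt92, another of the 138, has 55.9% of its bases in another gene.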

How the data were processed

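Per the submitters' processing notes, reads were aligned with Bowtie2 to GRCz10 and counted with featureCounts. One deposited table holds raw read counts per gene for non-crest and cardiac crest, made with featureCounts 1.5.1 on Ensembl release 80 over whole gene bodies, introns included and without use of strand, per the file headers. The other, deposited for trunk and cardiac crest, holds scaled signal values per gene, which the values show to be read counts divided by a size factor for each library. Its log2 fold changes, p-values, -log10 p-values and score (test statistic) columns are the authors' deposited comparison and were not used here.

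Dividing each library's scaled values by its smallest nonzero value gave whole numbers for 100% of values (tolerance 0.02), and the cardiac crest reads so recovered equalled the raw counts in all 20847 genes. Trunk crest reads, whose counting mode no header gives, were taken as counted in the same way and joined to the count table by gene ID. Symbols came from the deposited table for 17643 genes and from a separate gene name reference for 1761.

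Each pair of groups was fitted alone with edgeR's quasi-likelihood test (glmQLFit with robust estimation and glmQLFTest; edgeR 4.0.16, R 4.3.3), after filterByExpr and TMM scaling, with Benjamini-Hochberg adjustment over all genes tested. Every adjusted p is from this test, "called" means an adjusted p below 0.05, and standard errors were derived from the fold change and its F statistic (absolute log2 value over the root of F). Folds against a group with 0 reads take 3 reads per group as the floor, and ratios with 1 to 3 reads carry exact 95% counting intervals. Alternatives were RLE and upper-quartile scaling, DESeq2 1.42.0, limma 3.58.1, no filter, a test against a fold of 2, all 9 libraries in 1 fit, a replicate block and each library left out. The scripts were tested on simulated data.

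The members and the 23 gene lists, of which 506 of 616 entries were in both tables, were chosen with earlier results of these data known. Named were the marker genes, the 10 largest changes each way at a mean of 10 CPM or more, the 12 shared higher and 6 shared lower genes with the largest lesser change, the 8 largest changes over cardiac crest, and the up to 3 most changed called members each way of each list. Other named genes were chosen after their values were seen. Sequences and promoter motifs were not analysed here, and 1 gene that the rule names is not reported here.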

Additional observations from a re-analysis of the deposited data

Results flagged for a closer look

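A pair of genes was called in opposite directions over non-crest in trunk and cardiac crest. They were picked for this, so their difference in the direct comparison of the crest groups follows from the choice and adds no support. The retinoid receptor gene rxraa stood at 18.0, 25.5 and 18.2 CPM in trunk crest, 49.3, 36.2 and 41.0 CPM in non-crest and 196, 234 and 110.2 CPM in cardiac crest. It was lower in trunk crest (-1.05 ± 0.31, adjusted p = 0.0475, and up to 0.167 without 1 library) and higher in cardiac crest (2.10 ± 0.36, adjusted p = 0.0354), and trunk crest lay -3.15 below cardiac crest on the log2 scale (adjusted p = 0.000452). The 3 groups did not overlap.

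The fast troponin gene tnnt3a stood at 336, 80.6 and 135 CPM in trunk crest, 40.5, 19.1 and 9.05 CPM in non-crest and 0.833, 1.61 and 0.863 CPM in cardiac crest. It was higher in trunk crest (2.98 ± 0.71, adjusted p = 0.0234, and up to 0.0786 without 1 library) and lower in cardiac crest (-4.38 ± 0.69, adjusted p = 0.0257), and the crest groups differed by 7.37 ± 0.67 (adjusted p = 0.000221). Trunk crest replicate 1, the highest library for tnnt3a, also had the highest summed muscle level, 33177 CPM against 8927 and 12385 CPM in the other trunk crest libraries. Cardiac crest replicate 3, with a summed muscle level of 11512 CPM, held 0.863 CPM of tnnt3a. The part of muscle RNA in the tnnt3a differences was not tested.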

How the results depend on the processing

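Of the named genes, 85 of 105 called in trunk crest and 8 of 26 called in cardiac crest were called without any 1 library, and no called value of a named gene changed sign under any alternative run. Leaving out 1 library gave 1882 to 5414 genes differing between trunk crest and non-crest, 1021 to 2752 higher and 861 to 2662 lower. It gave 62 to 301 for cardiac crest against non-crest, 10 to 58 shared higher genes, 46 to 184 shared lower genes and 3102 to 4572 between the crest groups. Without replicate 3 of both non-crest and cardiac crest, cardiac calls numbered 578, shared higher 88 and shared lower 289. DESeq2 gave 3000 genes lower in trunk crest, 934 cardiac calls, 170 shared higher and 480 shared lower genes. By limma on log2(CPM + 1) the last 3 were 349, 70 and 221. Tested against a fold of 2, trunk crest had 1909 calls (923 higher, 986 lower), cardiac crest 143, shared higher 27, shared lower 85 and trunk against cardiac crest 1785. With all 9 libraries in 1 fit, shared higher genes numbered 85 and trunk against cardiac calls 3028. The causes were not tested. Replicate numbers share no stated origin, and same-numbered trunk crest and non-crest libraries deviated together with r of 0.009, -0.103 and 0.046 over 15472 genes, trunk crest replicate 1 correlating best with non-crest replicate 2 (0.158). Same-numbered cardiac crest and non-crest libraries carry consecutive library identifiers, but whether they came from the same sort is not stated. For cardiac crest and non-crest, which share line, age and tissue, the same-numbered r values were 0.020, 0.035 and 0.182. The highest r there was 0.231, between cardiac crest replicate 2 and non-crest replicate 1. The replicate block gave 2837 calls in trunk crest (1515 higher, 1322 lower) and 218 in cardiac crest. It gave 37 shared higher genes, 128 shared lower genes and 3635 calls between the crest groups. Depth limits low genes, since 3 reads equal 0.0675 to 0.137 CPM.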

Other observations

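Some genes were called lower in cardiac crest than in non-crest and higher in trunk than in cardiac crest, while trunk crest against non-crest was not called. The purine-catabolism gene uraha stood at 48.4, 60.9 and 67.7 CPM in trunk crest, 8.96, 36.9 and 25.8 CPM in non-crest and 0, 0.0512 and 0.0466 CPM in cardiac crest. Over non-crest it was lower in cardiac crest (-9.43 ± 1.00, adjusted p = 0.00507) and not called in trunk crest (1.29 ± 0.50, adjusted p = 0.103). For epas1a, a hypoxia-inducible factor gene, the means (n = 3) were 26.5, 45.7 and 4.99 CPM in the same order, with all trunk crest libraries below all non-crest libraries (-0.80 ± 0.32, adjusted p = 0.115) and trunk crest above cardiac crest (2.39 ± 0.46, adjusted p = 0.00702).

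Genes of receptors were among those called higher in cardiac crest and not called in trunk crest. The receptor-modifying gene ramp2 stood at 100.1, 122 and 133 CPM in trunk crest, 80.3, 65.7 and 73.5 CPM in non-crest and 278, 205 and 234 CPM in cardiac crest. Trunk crest lay above non-crest in every library of ramp2 without passing the test (0.68 ± 0.25, adjusted p = 0.0853). Levels of adgrg6, an adhesion receptor gene that acts in Schwann cells and the ear, were 28.0, 23.6 and 10.7 CPM in cardiac crest. Trunk crest held 2.46, 0.128 and 0.412 CPM (trunk over cardiac -4.37 ± 0.96, adjusted p = 0.0125). The cardiac crest call of adgrg6 over non-crest was near the threshold (adjusted p = 0.0487), and 53.6% of its bases lie inside another gene.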
